A study of Homo sapiens with 6 samples.

Results

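Cells that are about to divide switch on a set of genes whose products carry them from the end of DNA replication (the G2 phase) through mitosis. The genes described here are 49 such mitosis and G2/M genes, taken by name as a list that uses no measured value as a criterion, although earlier results of these data were known when it was drawn up. A single-gene probe set (the group of short probes that reads 1 transcript on an Affymetrix array) was used for 48 of them, out of 7035 genes tested. ANLN, which encodes the cytokinesis scaffold anillin, had no single-gene probe set in the table and was not analysed here.

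The 6 arrays were made from PC3, an established line of human prostate cancer derived from a bone metastasis. They fall into 2 groups of 3: control, replicates 1 to 3, and PSMA, replicates 4 to 6. PSMA, prostate-specific membrane antigen, is a cell-surface carboxypeptidase encoded by FOLH1. The labels describe the PSMA cells as transfected with the plasmid pLNCX-PSMA and the control cells as given the vector alone, both with the FUGENE 6 reagent and then selected with puromycin, although titles and genotype entries call the control cells wild type. All cells were grown in RPMI medium. Whether the selected cells were 1 clone or a pool, and whether replicates were separate cultures, was not given. The p-values therefore rest on differences among these 6 samples alone, and part of that spread may be technical.

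Entry into mitosis is driven by CDK1 bound to A- and B-type cyclins, once CDC25 phosphatases remove inhibitory phosphates. Polo and Aurora kinases then build the spindle, kinesin motors sort its microtubules, condensin compacts the chromosomes, and the spindle checkpoint holds back the anaphase-promoting complex (APC/C) until kinetochores are attached. Most of these genes are transcribed together late in the cell cycle, by MuvB complexes that act with MYBL2 and FOXM1 and that bind a promoter element called the cell cycle genes homology region (CHR), and with NF-Y, which binds CCAAT boxes.

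Signal of the gene that the transfection was meant to raise went against the labels. The 1 set that names only FOLH1 gave 61.5, 59.7 and 60.4 under the control label and 24.4, 32.0 and 28.0 under the PSMA label. The brightest set shared with its paralog FOLH1B read 477, 417 and 548 against 15.1, 8.58 and 13.7. The directions below therefore follow labels that these probe sets contradict: "rose" and "higher" mean past the threshold and higher on arrays labelled PSMA. Array medians ranged from 51.7 to 52.9, and pairs of arrays of 1 group correlated at 0.998 across probe sets, while pairs across groups reached 0.987 to 0.988, with probe sets not being independent replicates. The 5 epithelial markers (KRT8, KRT18, KRT19, EPCAM and CDH1) were all past the filter, and 4 of them fell (summed level 16760 under the control label and 13490 under the PSMA label), while 0 of 3 measured leucocyte markers and 0 of 3 measured luminal prostate markers (KLK2, KLK3 and TMPRSS2) were. Of the other cell types, 1 of 5 fibroblast markers (COL1A1) and 1 of 4 endothelial markers (PECAM1) passed. The probe set for the middle of 28S ribosomal RNA gave 1498 ± 63.1 under the control label and 675 ± 4.29 under the PSMA label (SD, n = 3). Its 5′ set gave 5778 ± 681 and 4047 ± 358, and its 3′ set was dim under both labels (19.3 and 20.4). The part that the epithelial and ribosomal RNA differences have in the results was not tested.

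As a group, the mitosis and G2/M genes changed little and in both directions. Of the 48 tested, 19 rose, 9 fell and 20 did not pass limma's adjusted p threshold of 0.05, which is 58.3% past it against 63.6% of all tested genes. By direction, 39.6% of them rose, against 30.1% of all genes, and 18.8% fell, against 33.5%. Control and PSMA values were fully separated in 32 of 48 genes (66.7%), against 69.5% of all genes. The shares past the threshold and without overlap lie near the background and are no result about these genes, and no test was made of the difference in direction.

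The sizes were small. The median log2 difference was 0.043 over the 48 genes and -0.014 over all tested genes, and the median size without sign was 0.18 and 0.22. A difference of less than 0.5 was found in 43 of 48 (89.6%), against 81.6% of all genes. With each gene read by its brightest probe set, none of the 48 reached 2-fold, a size that 4.41% of all genes passed with. The largest, that of KIF15, was 1.62-fold (log2 difference 0.70). The ranking depends on that choice: a second NUSAP1 set gave 0.97 on the log2 scale, and NUSAP1 averaged over its sets gave 0.79. When limma's treat tested for a fold beyond 1.5, 0 of the 48 passed, against 7.48% of all genes; 1, KIF15, had an unadjusted p under 0.05 in that test. The mean log2 level over the 48 genes was 9.63, 9.64 and 9.61 on arrays labelled control and 9.73, 9.72 and 9.73 on arrays labelled PSMA, while that over all tested genes was 8.35 to 8.37 and 8.34. In bulk RNA, more cells in G2 or mitosis and more transcript in each such cell cannot be told apart. When arrays were centred on 9 reference genes, the same number rose, 19, but 14 fell, with CCNB2, PRC1, RACGAP1, SMC2 and TROAP added. Of the changed members, 57.6% rather than 67.9% were then higher. All tested genes moved the same way, from 2118 higher and 2358 lower to 1927 and 2611, so the shift is not particular to the members. The reference genes were not stable themselves: 3 of the 9 rose and 3 fell, with log2 differences from -0.25 (PGK1) to 0.34 (SDHA).

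**Figure D1:**
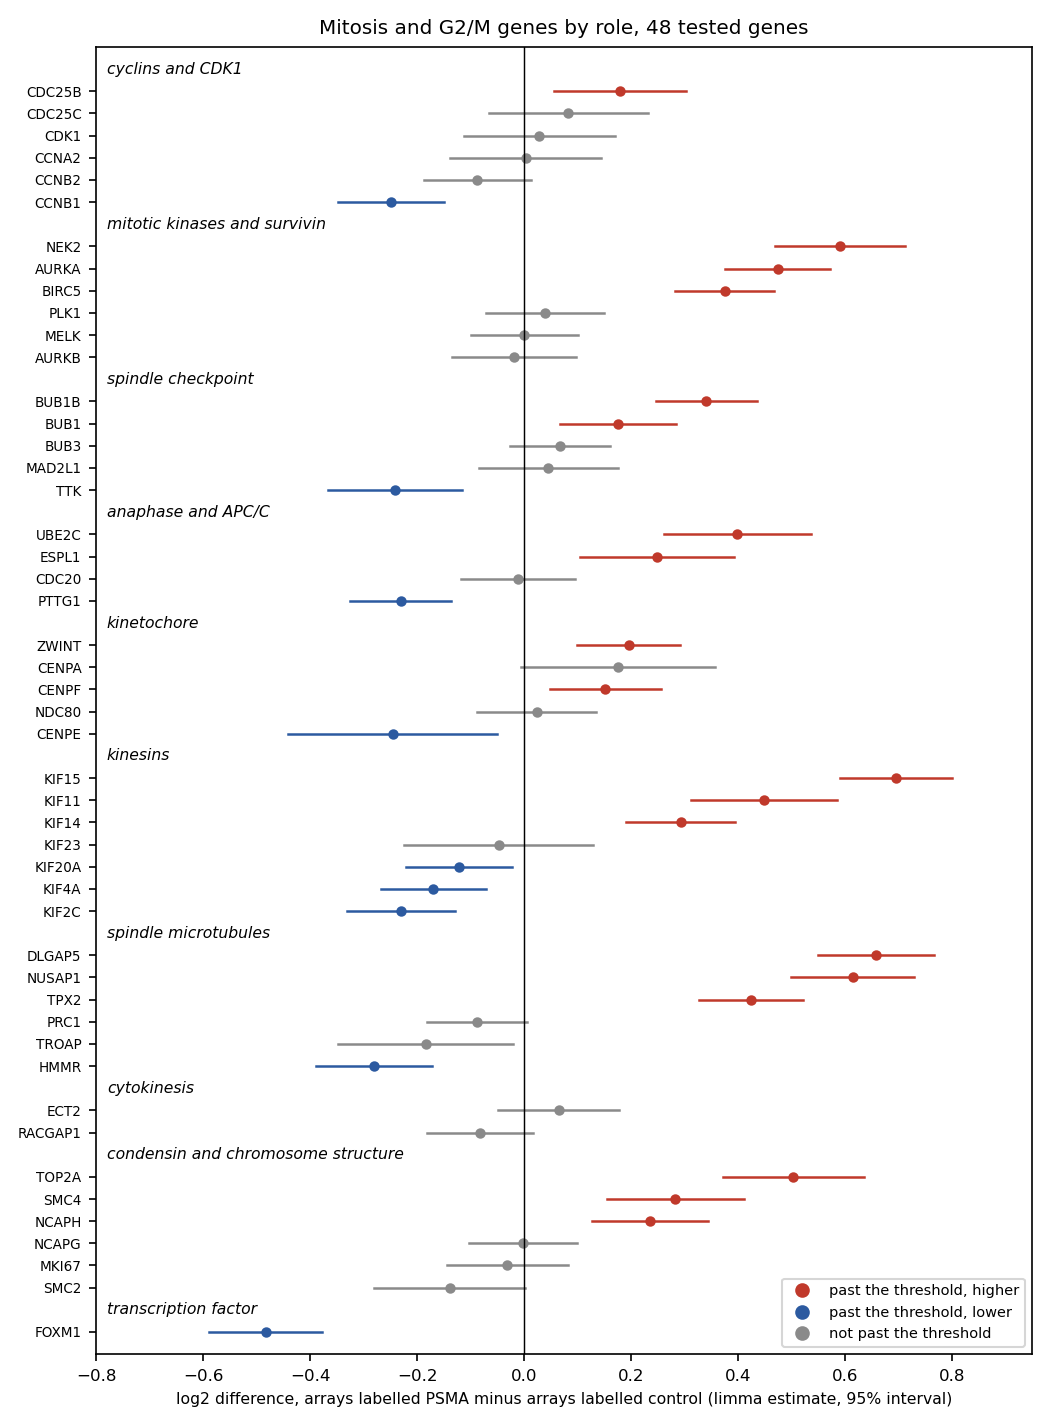
Log2 difference (horizontal axis, arrays labelled PSMA minus arrays labelled control) of each of the 48 tested genes, grouped by role, with 95% intervals from limma; colour gives the call. Most groups hold genes on both sides of 0, and all estimates lie between -0.48 (FOXM1) and 0.70 (KIF15).

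All 48 genes were read above the filter, the median of all values (52.5), on all 6 arrays. At the level of probe sets, 71 of the 79 single-gene probe sets passed and 8 did not. The dimmest that passed, a further set of SMC4, averaged 71.3 under the control label and 60.4 under the PSMA label, and the brightest that did not, a further set of BUB1, read 38.4 and 41.6.

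The CHR core was found upstream of about as many of these genes as lacked it, in members of all 3 calls. RefSeq promoters (GRCh38.p14) matched 39 of the 48 by symbol, with 52 start sites, some of which overlap. AURKA, BIRC5, BUB3, FOXM1, RACGAP1, TPX2, TROAP, TTK and UBE2C were not in the table used. In the 250 bases before a start, searched on both strands, the CHR core TTTGAA was found in 21 of 39 genes (53.8%), against 12.5% of the tested genes in that table and 16.1% of all its genes. In the last 60 bases it was found in 16 of 39 (41.0%), against 2.58% and 3.42%. The box CCAAT was found within 250 bases in 30 of 39 (76.9%), against 43.4% and 37.0%. The 2 motifs can overlap only where their letters are shared, as in MKI67 below. In 15 genes the core began between base -40 and base -10.

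The last 60 bases before the start are shown for the 8 members described by array below that hold the core there, 5′ to 3′ on the strand of the gene; capitals mark TTTGAA and CCAAT on either strand. The first 3 rose, the fourth fell, and the others did not pass. For CDK1 the second of its start sites is shown.
BUB1B (chr15:40161009-40161068, + strand): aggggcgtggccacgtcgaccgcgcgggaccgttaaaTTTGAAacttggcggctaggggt
KIF11 (chr10:92593070-92593129, + strand): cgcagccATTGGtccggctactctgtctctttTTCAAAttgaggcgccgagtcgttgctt
KIF15 (chr3:44761734-44761793, + strand): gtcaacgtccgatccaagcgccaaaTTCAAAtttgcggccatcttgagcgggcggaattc
HMMR (chr5:163460572-163460631, + strand): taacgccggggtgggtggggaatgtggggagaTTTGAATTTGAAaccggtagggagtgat
CDK1 (chr10:60778418-60778477, + strand): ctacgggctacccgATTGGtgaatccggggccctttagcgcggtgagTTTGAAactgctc
PLK1 (chr16:23678829-23678888, + strand): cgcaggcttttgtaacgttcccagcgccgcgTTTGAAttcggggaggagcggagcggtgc
PRC1 (chr15:90994536-90994595, - strand): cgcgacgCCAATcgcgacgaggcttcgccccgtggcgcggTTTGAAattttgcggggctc
MKI67 (chr10:128126424-128126483, - strand): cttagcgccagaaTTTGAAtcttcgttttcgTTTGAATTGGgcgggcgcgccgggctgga

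The core was on the strand of the gene in 6 of these and on the opposite strand in KIF11 and KIF15. HMMR held it back to back at bases -28 and -22, and MKI67 held it at -47 and -29. By call, 8 of 15 genes that rose (53.3%) had the core within 250 bases, as did 2 of 7 that fell (28.6%) and 11 of 17 that did not pass (64.7%). A match describes the letters only and is not evidence of binding.

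**Figure D2:**
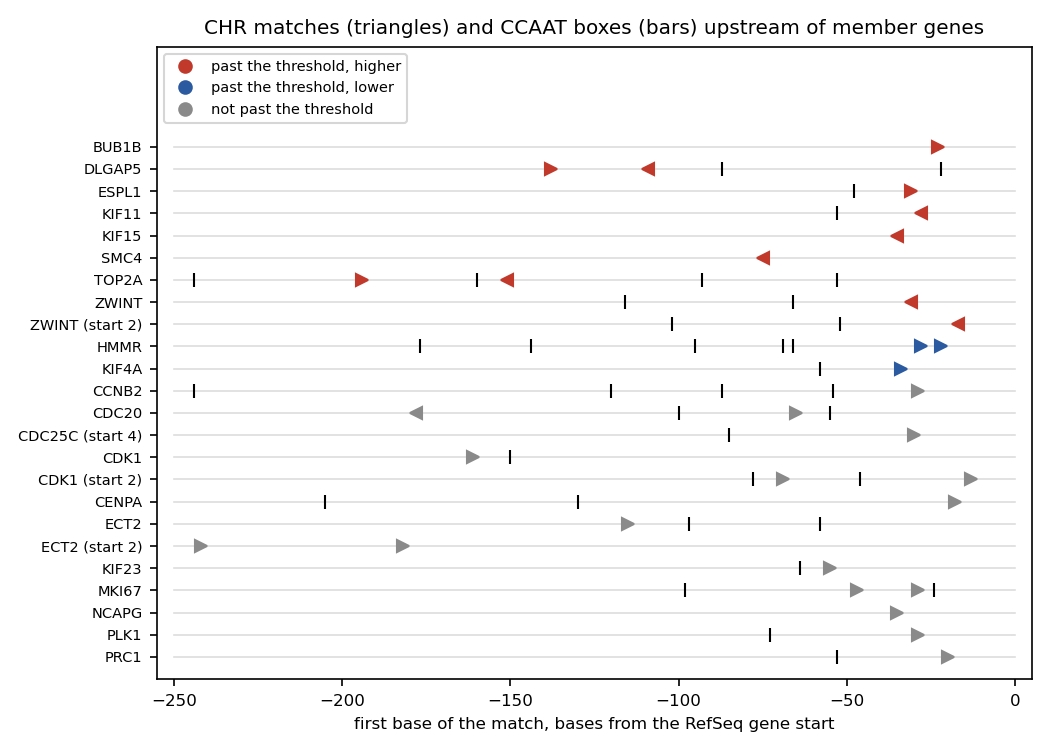
Position of CHR cores (triangles, pointing right on the strand of the gene and left on the opposite strand) and of CCAAT boxes (bars) in the 250 bases before the RefSeq start of each member with a core; the horizontal axis is the distance from the start in bases and the colour gives the call. Cores gather between -40 and -10 in genes of all 3 calls.

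Of 6 genes of cyclins, CDK1 and its activators, 1 rose, 1 fell and 4 did not pass. Beside the counts by role here and below stand the 30.1% of all tested genes that rose and the 33.5% that fell. No role was tested as a set. CDK1, the kinase that starts mitosis, read 3386, 3632 and 3244 under the control label and 3734, 3323 and 3412 under the PSMA label. The groups overlapped, and the log2 difference of 0.029 (95% interval -0.11 to 0.17) did not pass (limma adjusted p = 0.7). Of the other 2 CDK1 probe sets, 1 rose (0.15) and 1 did not pass (0.13). CCNB1, which encodes cyclin B1, the partner that brings CDK1 into the nucleus at mitotic entry, read 2684, 2609 and 2516 on the control arrays against 2216, 2159 and 2193 on the PSMA arrays. Each control value lay above each PSMA value, and CCNB1 fell (log2 difference -0.25, SE 0.043, limma adjusted p = 0.001). CCNB2 (cyclin B2) and CCNA2 (cyclin A2) did not pass, with log2 differences of -0.087 and 0.0034, although a second CCNA2 probe set fell by 0.13. CDC25B, a phosphatase that activates CDK1, read 479, 465 and 516 on control-labelled arrays and 531, 574 and 548 on PSMA-labelled ones. It rose by 0.18 without overlap (limma adjusted p = 0.017), but the call was lost without control replicate 1 (0.055), control replicate 2 (0.064) or PSMA replicate 5 (0.070), or with no filter on dim sets (0.0505), given as adjusted p. CDC25C, of the same family, did not pass (0.083 on the log2 scale) but rose without PSMA replicate 6 (0.15, limma adjusted p = 0.041).

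Of 5 mitotic kinase genes 2 rose and 3 did not pass, and survivin rose. NEK2, a kinase that parts the centrosomes, read 476, 514 and 488 under the control label and 776, 748 and 703 under the PSMA label. The groups were far apart, a 1.51-fold increase (log2 difference 0.59, SE 0.053, limma adjusted p = 2.1e-05), and a second NEK2 set rose by 0.68. AURKA, which encodes Aurora A, the kinase of centrosome maturation and spindle poles, read 1427, 1459.8 and 1396 on the control arrays against 2010.1, 2010.2 and 1929 on the PSMA arrays. It rose 1.39-fold (log2 difference 0.47, SE 0.043, limma adjusted p = 2.1e-05), and its second probe set past the filter rose as well (0.41). AURKB, which encodes Aurora B, the kinase of the chromosomal passenger complex, read 228, 215 and 233 on control-labelled arrays and 212, 228 and 227 on PSMA-labelled ones. Its groups overlapped (log2 difference -0.019, 95% interval -0.13 to 0.10), whereas BIRC5 (survivin), a subunit of the same complex, read 2067, 1979.8 and 2053 under the control label and 2633, 2632 and 2646 under the PSMA label. BIRC5 rose 1.3-fold (log2 difference 0.38, SE 0.041, limma adjusted p = 6.3e-05), as did its other 2 probe sets (0.24 and 0.36). PLK1, the polo kinase of mitotic entry and cytokinesis, read 85.8, 78.8 and 81.5 on the control arrays against 86.8, 83.7 and 82.4 on the PSMA arrays. The 2 groups overlapped for PLK1 (log2 difference 0.04, 95% interval -0.07 to 0.15). MELK differed by 0.00064, with an interval of -0.10 to 0.10.

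**Figure D3:**
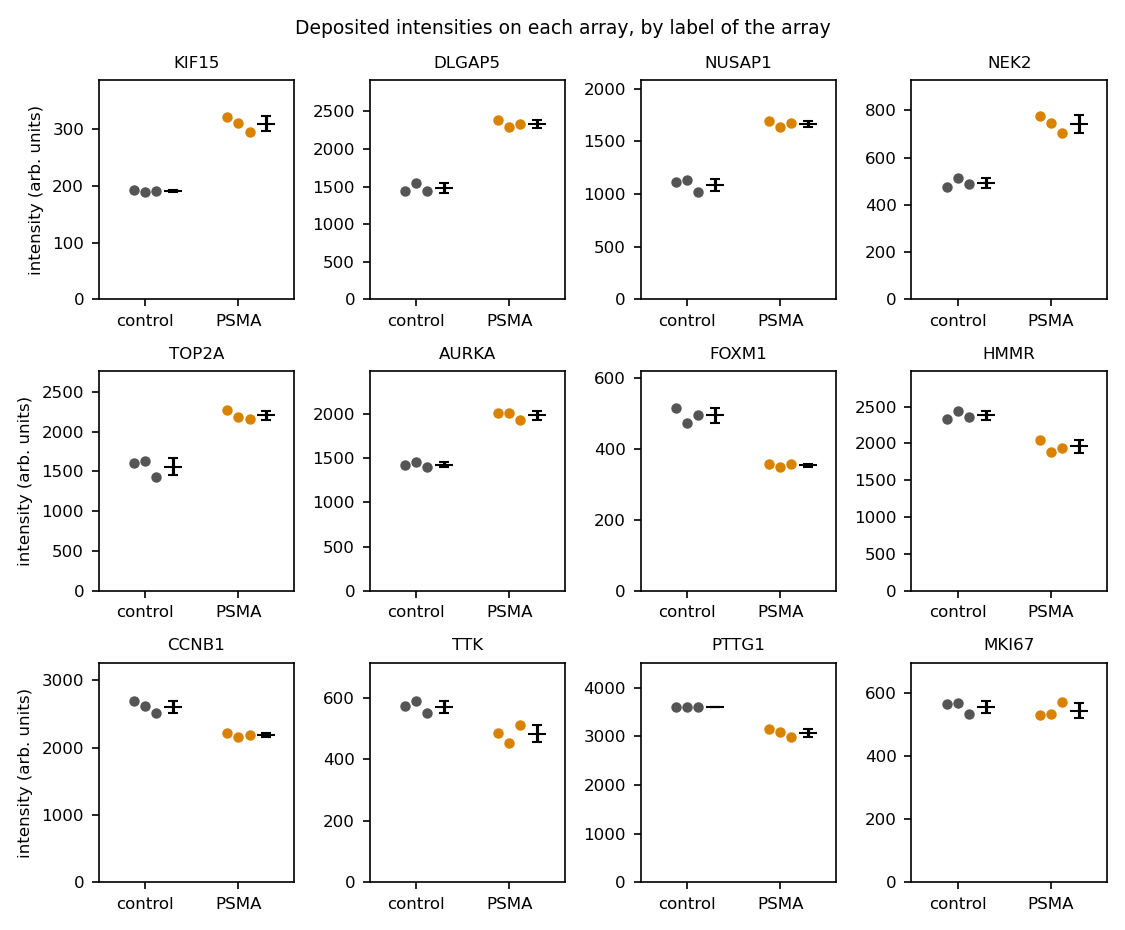
Deposited intensity (vertical axis, arbitrary units, from 0) of 12 members on each array, by the label of the array; points are arrays, and the bar beside them is the mean ± SD (n = 3). KIF15, DLGAP5, NUSAP1, NEK2, TOP2A and AURKA lie higher on all arrays labelled PSMA, FOXM1, HMMR, CCNB1, TTK and PTTG1 lie lower, and the MKI67 groups overlap.

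Of 5 spindle checkpoint genes 2 rose, 1 fell and 2 did not pass. BUB1B, which encodes the checkpoint protein BUBR1 that binds CDC20, read 1364, 1339 and 1332 on control-labelled arrays and 1713, 1657 and 1744 on PSMA-labelled ones. It rose by 0.34 (SE 0.042, limma adjusted p = 1.3e-04). BUB1, a kinase that recruits checkpoint proteins to kinetochores, read 835, 792 and 780.4 under the control label and 942, 895 and 882 under the PSMA label. All PSMA values were above all control values, and BUB1 rose by 0.18 (limma adjusted p = 0.011). TTK, the kinase MPS1 that starts checkpoint signalling, went the other way, with 572, 590.1 and 549.9 on the control arrays against 484, 455 and 510.3 on the PSMA arrays. It fell by 0.24 on the log2 scale (SE 0.055, limma adjusted p = 0.0044). MAD2L1, which encodes the MAD2 inhibitor of CDC20, read 1198, 1252 and 1173 on control-labelled arrays and 1210.0, 1192 and 1342 on PSMA-labelled ones, and its overlapping groups differed by 0.046 (95% interval -0.084 to 0.18). BUB3, the adaptor that anchors BUB1 and BUBR1, did not pass on its brightest probe set (log2 difference 0.067). Of its other 3 sets, 2 rose (0.42 and 0.29) and 1 did not pass (0.055). Averaged over its 4 sets, BUB3 rose by 0.21 (limma adjusted p = 0.0045).

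Of 4 genes of anaphase onset 2 rose, 1 fell and 1 did not pass. UBE2C, the ubiquitin-conjugating enzyme of the APC/C, read 1745, 1634 and 1879 under the control label and 2217, 2303 and 2402 under the PSMA label. UBE2C rose 1.32-fold (log2 difference 0.40, SE 0.060, limma adjusted p = 4.6e-04). CDC20, the activator that the checkpoint restrains, read 1661, 1748 and 1814 on the control arrays against 1699.6, 1725 and 1754 on the PSMA arrays. Its groups overlapped, and its log2 difference was -0.011 (95% interval -0.12 to 0.10). The gene of securin, PTTG1, which holds separase inactive until anaphase, read 3604, 3610.3 and 3598 on control-labelled arrays and 3154, 3079 and 2983 on PSMA-labelled ones. PTTG1 fell by 0.23 (0.0013, limma adjusted p) on a probe set of a type that may cross-hybridise, and near-identical copies of PTTG1 exist. ESPL1, which encodes separase itself, the protease that cuts cohesin, rose by 0.25 (limma adjusted p = 0.0078), with a second set at 0.12 that did not pass.

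At the kinetochore, where microtubules attach to the centromere, 2 of 5 genes rose and 1 fell, by at most 0.25 on the log2 scale. ZWINT, a linker of the outer kinetochore, rose by 0.20 (limma adjusted p = 0.0034). CENPF, a large protein of the outer kinetochore, read 662, 684 and 661 under the control label and 776, 729 and 725 under the PSMA label. CENPF rose by 0.15 (limma adjusted p = 0.017), a call that was lost without control replicate 1 (adjusted p = 0.055) or PSMA replicate 4 (0.058), or with no filter on dim sets (0.052), while its second probe set rose by 0.41. NDC80, the microtubule-binding core of the kinetochore, read 887, 847 and 801 on the control arrays against 845, 869.9 and 860.0 on the PSMA arrays. These overlapped, with a log2 difference of 0.024 (95% interval -0.088 to 0.14). CENPE, a kinesin that brings chromosomes to the spindle equator, fell by 0.25 (limma adjusted p = 0.033), although control replicate 1 and PSMA replicate 4 both read 448. The CENPE call was lost on leaving out any 1 array except PSMA replicate 4, with log2 differences from -0.27 to -0.19 and adjusted p from 0.051 to 0.11, and with no filter on dim sets (0.079). CENPA, the histone variant that marks centromeres, did not pass (0.18, limma adjusted p = 0.082) but rose by 0.26 without control replicate 3 (0.011) and, at 0.032, with a trended robust variance.

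Mitotic kinesins held the largest increase of all 48 genes as read by their brightest sets, beside 3 decreases. KIF15, a motor that helps keep the spindle bipolar, read 193, 189.6 and 191 on control-labelled arrays and 322, 311 and 296 on PSMA-labelled ones. The PSMA arrays stood well above, at 1.62-fold (log2 difference 0.70, SE 0.046, limma adjusted p = 3.7e-06). KIF11, which encodes Eg5, the motor that first drives the spindle poles apart, read 362, 381 and 333 under the control label and 488, 469 and 511 under the PSMA label. It rose 1.37-fold (log2 difference 0.45, SE 0.060, limma adjusted p = 2.2e-04), and KIF14, a motor of the midbody, by 0.29 on the log2 scale. The microtubule depolymerase gene KIF2C fell by 0.23 (limma adjusted p = 0.0019), on both of its probe sets, and the chromokinesin gene KIF4A by 0.17 (limma adjusted p = 0.0078). KIF20A, a motor of the central spindle, read 737, 713 and 691 on the control arrays against 659, 663 and 646 on the PSMA arrays. It fell by 0.12 (limma adjusted p = 0.037), a call that was lost on leaving out any 1 array but control replicate 3 (log2 differences of -0.13 to -0.097, adjusted p of 0.069 to 0.13) and under quantile normalization, centring on the array median or no filter on dim sets (0.094). KIF23, the motor of the centralspindlin complex, did not pass (-0.047).

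Genes of spindle microtubule proteins showed the next largest increases. DLGAP5, which stabilises microtubules near chromosomes, read 1445, 1552 and 1437 on control-labelled arrays and 2384, 2287 and 2325 on PSMA-labelled ones. NUSAP1, which bundles spindle microtubules, read 1113, 1129 and 1024 under the control label and 1694, 1632 and 1671 under the PSMA label. Both lay apart by label, with increases of 1.58-fold (log2 difference 0.66, SE 0.047, limma adjusted p = 5.9e-06) and 1.53-fold (log2 difference 0.61, SE 0.050, limma adjusted p = 1.2e-05), and a second NUSAP1 probe set gave 0.97 on the log2 scale. TPX2, the activator that targets Aurora A to the spindle, read 752, 772 and 778 on the control arrays against 1031, 1003 and 1058 on the PSMA arrays. It rose 1.34-fold (log2 difference 0.42, SE 0.042, limma adjusted p = 4.1e-05). HMMR, a spindle pole protein that binds hyaluronan outside cells, read 2331, 2446 and 2366 on control-labelled arrays and 2051, 1887 and 1943 on PSMA-labelled ones. HMMR fell by 0.28 (9.1e-04, limma adjusted p), and its second set fell by 0.29. PRC1, the bundler of the central spindle, read 994, 994 and 997 under the control label and 912, 962 and 935 under the PSMA label. These PRC1 values did not overlap, but the difference of -0.088 did not pass (limma adjusted p = 0.093), although PRC1 fell when arrays were centred on reference genes (-0.12, 0.033). TROAP differed by -0.18 (limma adjusted p = 0.051) and fell without control replicate 1 (-0.25, 0.018) or PSMA replicate 6 (-0.23, 0.032), and under several other settings.

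Neither of the 2 tested cytokinesis genes passed, except RACGAP1 under 1 scaling. ECT2, the exchange factor that activates RHOA at the division plane, read 1336, 1311 and 1216 on the control arrays against 1325, 1334 and 1381 on the PSMA arrays. RACGAP1, the centralspindlin subunit that binds ECT2, read 1495, 1468 and 1421 on control-labelled arrays and 1349.7, 1378 and 1414 on PSMA-labelled ones. ECT2 overlapped between groups (0.065, 95% interval -0.048 to 0.18), and RACGAP1 did not overlap but differed by -0.082 (-0.18 to 0.017). Centred on reference genes, RACGAP1 fell by 0.11 (limma adjusted p = 0.041).

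Among genes of chromosome structure, 3 of 6 rose. TOP2A, the topoisomerase that untangles sister DNA, read 1601, 1634 and 1434 under the control label and 2269.8, 2182 and 2156 under the PSMA label. Its groups were apart, and TOP2A rose 1.42-fold (log2 difference 0.50, SE 0.058, limma adjusted p = 8.9e-05), with a second set at 0.42. SMC4, an ATPase subunit of condensin, read 1866, 1938 and 1726 on the control arrays against 2346, 2207 and 2172 on the PSMA arrays. SMC4 rose by 0.28 (limma adjusted p = 0.0022), and a further set rose by 0.20 (limma adjusted p = 0.018). Its dimmest set, of the type that may cross-hybridise, averaged 71.3 and 60.4 and did not pass (-0.23). Averaged over 3 sets, the SMC4 difference was 0.084 and did not pass. NCAPH, the kleisin subunit of condensin I, rose by 0.24 (limma adjusted p = 0.0023). The subunit gene NCAPG differed by -0.0016, and SMC2, partner of SMC4, by -0.14. Neither passed, although SMC2 fell by 0.19 without PSMA replicate 4 (limma adjusted p = 0.026). A second SMC2 set differed by 0.11 and did not pass, and under the alternatives the SMC2 difference ran from -0.19 to -0.015. MKI67, which encodes the proliferation marker Ki-67 on the surface of mitotic chromosomes, read 566, 568 and 534 on control-labelled arrays and 529, 532 and 572 on PSMA-labelled ones. These overlapped (-0.031, 95% interval -0.14 to 0.083), and of its other 3 sets 1 fell (-0.25) and 2 did not pass (-0.035 and 0.036).

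FOXM1, the transcription factor that drives many of these genes in G2, showed the largest decrease. It read 516, 473 and 495 under the control label and 356, 348 and 356 under the PSMA label. No control value came near a PSMA value, a 1.4-fold decrease (log2 difference -0.48, SE 0.046, limma adjusted p = 3.2e-05). FOXM1 rests on a single probe set, of the type that may cross-hybridise.

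**Figure D4:**
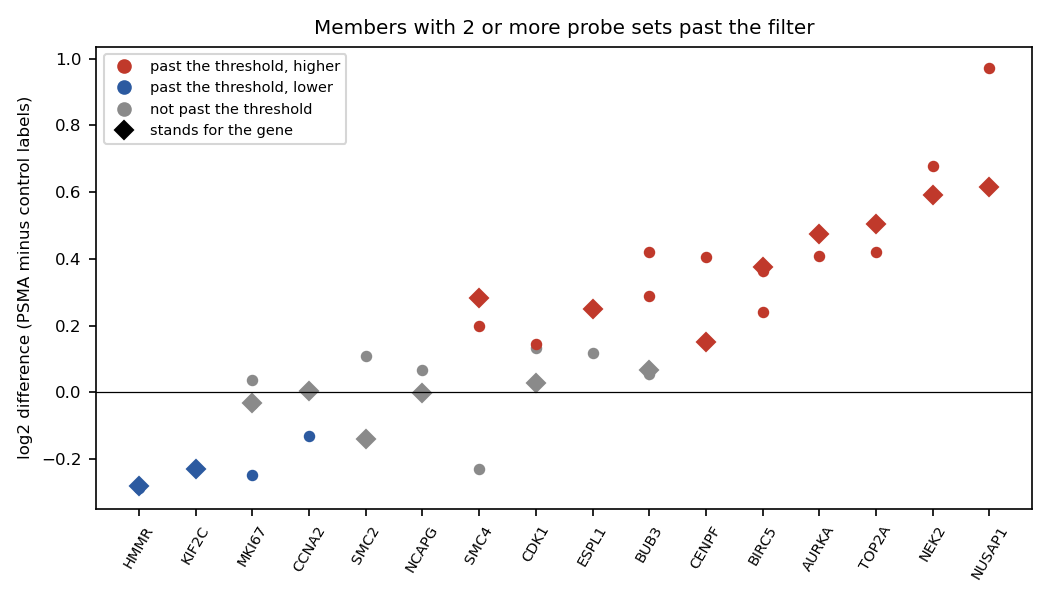
Log2 difference (vertical axis, arrays labelled PSMA minus arrays labelled control) of every probe set past the filter, for the 16 members with 2 or more; diamonds mark the set that stands for the gene, and colour gives the call. No gene had sets called in opposite directions.

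Among members with several probe sets, calls were never opposed, but in some they differed. Signs could differ too, as in SMC4 (0.28 and -0.23, the second not past) and SMC2 (-0.14 and 0.11, neither past). Of the 71 sets past the filter 30 rose, 13 fell and 28 did not pass, where 60.6% of all tested probe sets passed the threshold. Of 16 members with 2 or more such sets, 0 had sets called in opposite directions. In 6 (BUB3, CCNA2, CDK1, ESPL1, MKI67 and SMC4) some sets passed and others did not. The only single-gene set of CENPA and the brightest of BUB3 are, like those of FOXM1 and PTTG1, of the type that may cross-hybridise. So is a further set each of BIRC5, CDK1 and SMC4. Another CENPA set, shared with SLC35F6, was not used.

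The members' differences were correlated with those of the genes beside them on the chromosome. For each gene, the mean log2 difference of the 7 tested genes on each side in RefSeq order was taken, fewer at chromosome ends. Across the 48 members the 2 values correlated at r = 0.659 (Spearman's rho 0.549), and across all 7034 placed genes at r = 0.482 (0.428); genes that are neighbours share their windows, so this is a description. Of the 19 members that rose, 13 (68.4%) had more neighbours higher than lower, against 63.9% of all genes that rose. Of the 9 that fell, 8 (88.9%) had more neighbours lower, against 74.6% of all genes that fell; KIF20A was the exception. Of the 20 that did not pass, 4 (20%) had more neighbours higher, 9 (45%) more lower, and 7 equal numbers. Among all genes that did not pass, the shares were 34.4% more higher and 57.6% more lower.

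Chromosome 20 was the clearest case. All 4 tested members on it, AURKA, TPX2, UBE2C and CDC25B, rose, and 160 of its 213 tested genes rose (75.1%) while 12 fell, the largest share of higher genes of any chromosome. AURKA had 13 of 14 neighbours higher and 0 lower, with a mean of 0.52 against its own 0.47. UBE2C had 12 higher and 0 lower (mean 0.41 against 0.40), and TPX2 had 9 and 0 (0.30 against 0.42). CDC25B, at 0.18, lay below its neighbours' mean of 0.28, of which 8 were higher and 1 lower. Outside chromosome 20, 15 members rose, 9 fell and 20 did not pass.

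Other large differences also lay in shifted surroundings. DLGAP5, on chromosome 14, had 12 neighbours higher and 0 lower (mean 0.49). NEK2 and KIF14, both on chromosome 1, had 12 and 11 higher and 1 lower each (means 0.33 and 0.39), and KIF15, on chromosome 3, had 9 higher and 1 lower (0.29). FOXM1, on chromosome 12, had 10 of 13 lower and 2 higher, with a mean of -0.42 against its own -0.48. On chromosome 5, 4 of 5 members fell (CCNB1, PTTG1, KIF20A and HMMR), but the 36.3% of its tested genes that fell is near the 33.5% of all tested genes, and KIF20A had 4 neighbours higher and 1 lower. Of the 19 members that rose, 7 had neighbours with a mean below 0: SMC4 (-0.41), BUB1 (-0.27), ZWINT (-0.12), TOP2A (-0.074), ESPL1 (-0.062), NCAPH (-0.049) and CENPF (-0.0075). The part that chromosomal position has in these differences was not tested.

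**Figure D5:**
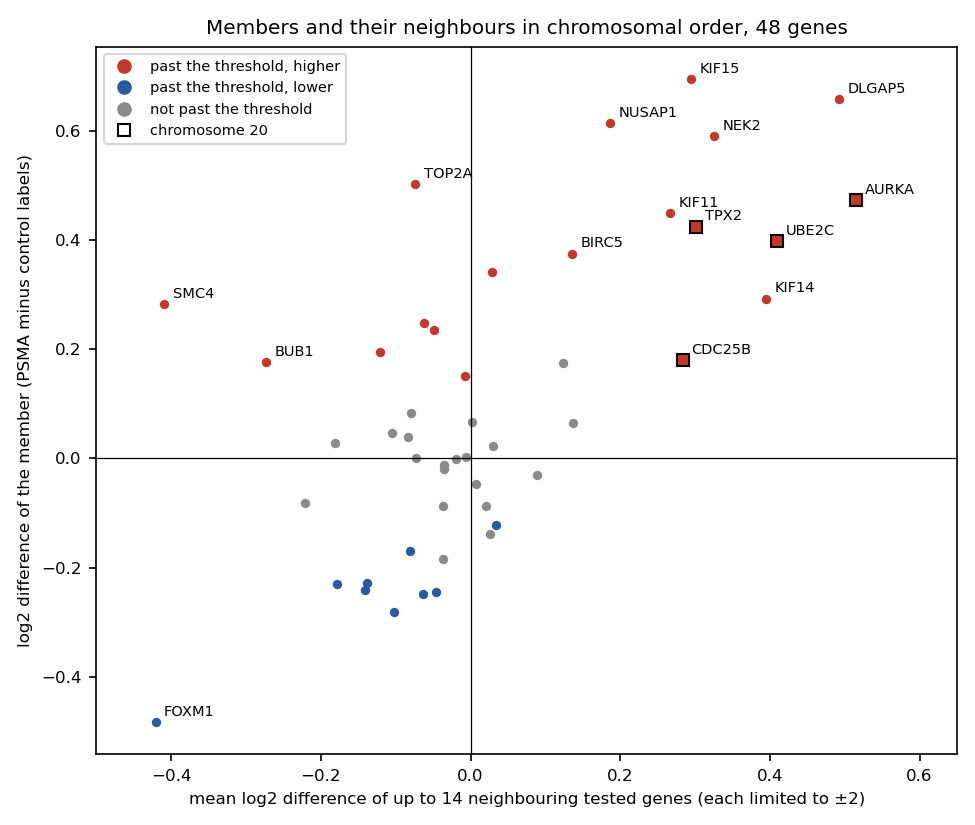
Log2 difference of each of the 48 members (vertical axis) against the mean log2 difference of its neighbouring tested genes (horizontal axis, each neighbour limited to ±2); squares are members on chromosome 20, and colour gives the call. Members that rose most lie to the right, FOXM1 lies at the lower left, and 7 members that rose, among them TOP2A, SMC4 and BUB1, lie left of 0.

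The wider mitotic machinery also went both ways. In 7 further lists of mitotic and G2/M genes, 116 of 157 genes were tested; 40 rose, 31 fell and 45 did not pass, with a median log2 difference of 0.025. Among all tested genes 30.1% rose and 33.5% fell, so these counts lie near the background. Of 11 tested APC/C genes 4 rose and 3 fell. CDC16, an APC/C subunit, rose by 0.63, with 7 of 7 neighbours higher on chromosome 13. FBXO5, which encodes the APC/C inhibitor EMI1, rose by 0.39, with 4 of 14 neighbours higher and 4 lower. The small subunit genes ANAPC13 and ANAPC15 fell by 0.45 and 0.42. Of 14 neighbours each, 3 and 3 were higher and 4 and 5 lower. Of 10 cohesin genes 3 rose and 4 fell. The ring subunit genes SMC3 and RAD21 rose by 0.46 and 0.27, with 5 and 4 neighbours higher and 6 and 3 lower. SMC1A fell by 0.25, with 4 higher and 7 lower, and PDS5B, a cohesin regulator, fell by 1.04 with 13 of 14 neighbours lower.

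Further kinetochore and checkpoint genes gave 9 higher and 1 lower of 24. For this and the next lists, the shares over all tested genes are 30.1% higher and 33.5% lower, and no list was tested as a set. KNTC1, a subunit of the complex that brings dynein to kinetochores, rose most (0.68), with 3 neighbours higher and 4 lower. The decrease was CDCA8 (-0.15), which encodes borealin, a partner of Aurora B, with 0 neighbours higher and 8 lower. Those 9 include SKA1, which was tested only because its 3 PSMA values were above the filter while its 3 control values were below it, so its call supports nothing. Of 6 further genes of chromosome structure 4 rose and 0 fell at an adjusted p under 0.05 by limma, led by TOP2B (0.95), the other type II topoisomerase, and the condensin subunit NCAPD2 (0.44). TOP2B had 8 neighbours higher and 3 lower, with a mean of 0.076, and NCAPD2 had 2 and 5. Of 25 further spindle, centrosome and cytokinesis genes 9 rose and 7 fell. The largest increases, of TUBGCP3 (1.22), part of the gamma-tubulin ring, and BORA (0.83), the activator of Aurora A, were both on chromosome 13, with 14 of 14 neighbours higher. KIF18A, a kinesin that limits microtubule length, fell by 0.90 on chromosome 11, with 11 of 14 neighbours lower. DEPDC1 fell by 0.31, with 8 of 14 lower.

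Of 21 genes that hold back or license G2/M entry, 4 rose and 10 fell, with a median of -0.14. Among all tested genes 30.1% rose and 33.5% fell, and no list was tested as a set. CDKN1A, which encodes the CDK inhibitor p21, read 336 ± 9.21 under the control label and 135 ± 14.7 under the PSMA label (SD, n = 3), and fell by 1.32 on the log2 scale (limma adjusted p = 1.6e-06). CDKN1B, which encodes p27, fell by 0.40, while CKS1B, a CDK-binding subunit, rose by 0.29 and the phosphatase gene CDC25A by 0.23. CDKN1A had 2 neighbours higher and 3 lower, CDKN1B 4 and 6, CKS1B 3 and 2, and CDC25A 7 and 2. Among regulators of the MuvB, DREAM and E2F complexes 7 of 19 rose and 6 fell. TFDP1, the partner of E2F factors, and RB1, the retinoblastoma repressor, rose by 0.97 and 0.94, both on chromosome 13 with 9 of 9 and 13 of 14 neighbours higher. E2F8 and E2F5 fell by 0.66 and 0.51, with 13 and 5 of 14 neighbours lower and 0 and 2 higher.

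Genes of the preceding G1/S transition and of DNA replication, the nearest set in the cell cycle, gave 14 higher, 8 lower and 22 not past of 44 tested, with a median of 0.078 beside 0.043 for the mitosis and G2/M genes. The range was wider, from -1.29 for the clamp loader RFC3 to 1.26 for the polymerase subunit POLA1. Of those 44, 2 reached 2-fold, against 0 of the 48 mitotic genes and 4.41% of all tested genes. The difference between the 2 sets was not tested. By direction, 30.1% of all tested genes rose and 33.5% fell, and their differences ran from -6.02 to 5.63. CCNE2, a cyclin of S-phase entry, rose by 0.87, with 6 neighbours higher and 3 lower (mean -0.045). The replication initiation gene MCM10 fell by 0.38, with 1 higher and 9 lower. RFC3 had 13 of 14 neighbours lower on chromosome 13, whereas POLA1, on chromosome X, had 5 higher and 8 lower.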

How the data were processed

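RNA of 6 samples was labelled with biotin and hybridised to Affymetrix arrays, per the labels' protocols. The deposited values are intensities per probe set, for which the submitters' processing notes name GCRMA; its version, the scale and any later step are not given in the sources used here. Values ran from 3.76 to 17455 and were taken as linear. GCRMA draws dim sets towards a common low value, and the number of arrays (3 a group) limits precision.

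Values were log2-transformed without pseudocount. The table held 22277 probe sets; 62 control sets were left out, as were sets that exceeded 52.5, the median value, on fewer than 3 arrays, which left 11303. Of the 19064 sets with 1 symbol, 19052 were found in RefSeq (GRCh38.p14) by gene identifier and 0 needed a new symbol. Each of 7035 genes was represented by its brightest single-gene set. Differences were fitted with limma 3.58.1 (lmFit, eBayes) in R 4.3.3 across all genes, with Benjamini-Hochberg adjustment over all of them, two-sided, threshold 0.05; probe sets were fitted separately. Python 3.11.15, pandas 2.3.3, scipy 1.17.1 and matplotlib 3.10.9 were used for summaries. The fit was tested on simulated data. No array was left out or imputed in the main values.

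The members and gene lists were chosen with earlier results of these data known. Named members were a set of 25 fixed by role, plus the 5 largest increases and 5 largest decreases past the threshold without overlap; in each further list, the 2 largest changes each way. Other members, and the comparison with chromosomal neighbours, were added after the values were seen. Alternatives were no filter, a filter on all 6 arrays, averaged probe sets, single probe sets, 3 scalings, a floor at the 25th percentile, a trended robust variance, a tested fold of 1.5 and leaving out each array.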

Additional observations from a re-analysis of the deposited data

How the results depend on the processing

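The count of members higher, 19, ranged from 17 to 20, and the count lower, 9, from 7 to 10, under the alternatives, with these exceptions. Centring on reference genes, of which 3 rose and 3 fell themselves, gave 14 lower. The same scaling gave 2611 rather than 2358 lower over all tested genes. Testing every probe set on its own gave 30 higher and 13 lower of 71. The test against a fold of 1.5 (limma's treat) gave 0 higher and 0 lower. The median log2 difference, 0.043, was 0.069 with quantile normalization, 0.060 when centred on the array median, 0.012 when centred on reference genes and 0.067 over single probe sets; without 1 array it ranged from 0.025 to 0.066. Its sign was the same in all of these, but its size depended on the scaling and on single arrays. The members' median level on each array, a different quantity, had an SD of at most 0.013 within a group. For the 31 named members, no called direction turned under an alternative. No array numbers are shared by the groups, so no pairing was fitted. Sets of dim signal are limited by the background correction.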
